A study of Mus musculus and Homo sapiens with 33 samples.

Results

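Circular RNAs were compared between doxorubicin and dactinomycin, both drugs that slide between the base pairs of DNA, in LLC1 cells, a mouse Lewis lung carcinoma line. The comparison took every row of the table of circular RNAs deposited for the drug panel, which is 472 of 472 circular RNAs, in 6 of the 33 libraries of the series. There were 3 libraries from wild-type LLC1 cells given doxorubicin and 3 from wild-type LLC1 cells given dactinomycin. Another 3 libraries from cells given the solvent DMSO are shown where a value needs a baseline, and all groups were treated for 48 h. The labels give doxorubicin at 4 mM and dactinomycin at 1 µM. The doxorubicin dose is printed as labelled, and whether millimolar is the intended unit could not be checked. The doses are not matched, so the differences below belong to these libraries and do not rank the drugs. All libraries come from a single cell line, and the labels do not say whether the libraries of a group were separate cultures. The p-values therefore measure a spread between libraries, which may be technical. For the tests of single circles that spread is estimated over all 7 groups of the drug panel and not from the 6 libraries alone.

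A circular RNA forms when the spliceosome joins the end of an exon to the start of the same or an upstream exon, a step called back-splicing. The closed ring has no free end for exonucleases to attack, so circular RNAs usually outlast the linear mRNA of the same gene. Doxorubicin is an anthracycline that intercalates into DNA and traps topoisomerase II on cut strands. Dactinomycin intercalates at guanine-cytosine steps and blocks the passage of RNA polymerases, and it is widely used to stop transcription when RNA stability is measured. Each row is called here by the annotated gene that spans its junction, and a value describes the ring and not the linear transcript of that gene.

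Per the labels, the rows had been chosen by the authors as differentially expressed within the panel, so the share of rows that differ says nothing about circular RNAs outside the list. The deposited values are a signal without a named unit. Once multiplied by length, the values of a library were whole multiples of a single constant for 451 of the 472 circles (95.6%, tolerance 0.002 reads), which gives back the number of back-splice reads. If the constant scales each library to its own circular RNA signal, a value is a share of that signal. Whether cells held fewer circles or whether fewer circle-holding cells survived cannot be told apart in bulk RNA. None of the 17 marker genes checked for leukocytes, endothelium, fibroblasts and red cells hosts a listed circle, so the labelled cell type could not be tested with this table.

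The junction is what identifies a circle, so the junctions of the circles the results turn on are shown first, for those with both ends on exons of one transcript and coding sequence throughout. Lower-case letters are the last 30 bases of the circle's last exon, and capitals are the first 30 bases of its first exon, which follow directly in the ring. They were read from GENCODE M21 transcripts (mm10), 5′ to 3′ on the gene's strand. Ect2, Bbs9 and Spen passed the test as higher after doxorubicin. Vapa, Mkln1, Uck2 and Ash1l are among the circles with the largest fall. Dennd1b and Tiam2 were above 0 in all 6 libraries, and Bub1b split the doxorubicin libraries.
Ect2: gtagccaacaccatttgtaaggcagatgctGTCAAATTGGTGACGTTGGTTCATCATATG
Bbs9: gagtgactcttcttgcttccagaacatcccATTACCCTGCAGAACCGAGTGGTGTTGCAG
Spen: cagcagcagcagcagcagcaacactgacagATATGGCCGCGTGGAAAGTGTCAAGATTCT
Vapa: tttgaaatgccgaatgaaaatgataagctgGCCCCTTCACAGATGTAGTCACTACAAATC
Mkln1: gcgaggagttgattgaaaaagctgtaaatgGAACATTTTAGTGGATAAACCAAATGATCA
Uck2: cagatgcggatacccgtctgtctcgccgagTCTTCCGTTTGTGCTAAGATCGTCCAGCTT
Ash1l: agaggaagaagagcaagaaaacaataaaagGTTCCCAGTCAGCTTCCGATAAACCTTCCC
Dennd1b: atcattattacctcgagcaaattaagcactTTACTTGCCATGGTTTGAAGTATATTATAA
Tiam2: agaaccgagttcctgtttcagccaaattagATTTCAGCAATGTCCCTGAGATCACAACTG
Bub1b: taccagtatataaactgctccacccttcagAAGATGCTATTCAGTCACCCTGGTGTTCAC

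Far fewer of the listed circles were above 0 after doxorubicin than after dactinomycin. After doxorubicin 38, 38 and 58 circles were above 0, against 440, 434 and 430 after dactinomycin. The means were 44.7 ± 11.5 and 435 ± 5.03 circles (SD, n = 3 each). Their ranges did not overlap, and the two-sided exact permutation test gave p = 0.1, the smallest that 3 against 3 libraries allow. The summed value of the listed circles was 119331, 118561 and 185948 after doxorubicin and 283354, 277962 and 305056 after dactinomycin (exact p = 0.1). Doxorubicin replicate 3 stood apart from its group in both measures.

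The summed value was held by fewer circles after doxorubicin. Since fewer circles were above 0 after doxorubicin, 10 circles are a larger part of them. The share below is therefore not independent of that count. The 10 highest circles held 61.6%, 60.7% and 49.8% of the summed value in the doxorubicin libraries, against 14.2%, 13.8% and 15.0% in the dactinomycin libraries (exact p = 0.1). The groups were again apart in every library. These shares, and the highest means named below, rank circles on the deposited scale, which follows genomic span and not spliced length for 46 circles with more than 1 exon or no transcript. The median spliced length of the circles above 0 was 775.5, 656 and 648.5 nt after doxorubicin and 696.5, 708 and 676 nt after dactinomycin. Those ranges overlapped (exact p = 1.0). The plot of circles above 0, summed value and share per library shows these 3 measures.

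**Figure D1:**
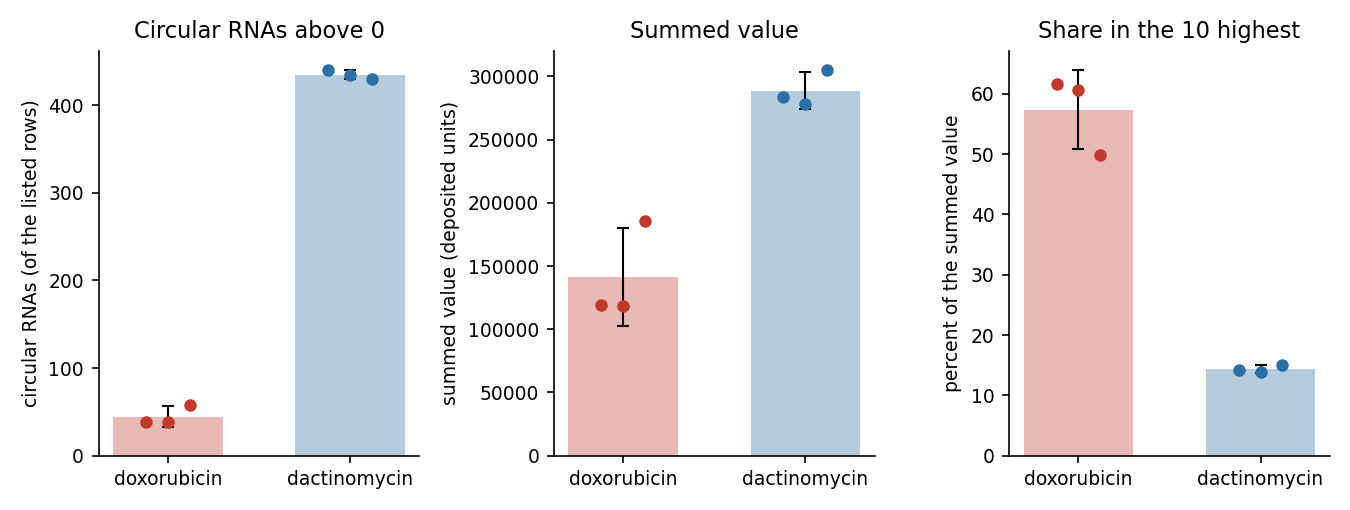
Circles above 0 (left), summed value in the deposited unit (middle) and percent of the summed value in the 10 highest circles (right) in doxorubicin and dactinomycin libraries. Points are libraries, bars are means and error bars are SD (n = 3). The doxorubicin points lie at 38 to 58 circles and the dactinomycin points at 430 to 440.

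The worth of a read moved with the group. For a circle of 1000 nt a single back-splice read stood for 172, 170 and 82.7 units in the doxorubicin libraries and 22.1, 25.4 and 27.1 units in the dactinomycin libraries. The listed circles held 590, 517 and 1341 back-splice reads after doxorubicin, against 8914, 7954 and 7987 after dactinomycin. Whether the doxorubicin libraries were sequenced less or held less circular RNA cannot be told apart from this table. In the text below, the shallowest library of a group is the one in which a read was worth most. A 0 after doxorubicin leaves room for a higher value than a 0 after dactinomycin does. When every value below the worth of 2 reads in the shallowest doxorubicin library was set to 0 in all libraries, which gives all of them 1 detection floor, 38, 38 and 57 circles remained above 0 after doxorubicin, against 227, 223 and 233 after dactinomycin. The groups stayed apart, with a smaller gap (exact p = 0.1).

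Which circles were seen differed between doxorubicin libraries far more than between dactinomycin libraries. Of 91 circles above 0 in any doxorubicin library, 13 (14.3%) were above 0 in all 3. Of 468 above 0 in any dactinomycin library, 386 (82.5%) were above 0 in all 3. The doxorubicin libraries held far fewer back-splice reads on the listed circles, and how far this sets the lower overlap was not tested. Doxorubicin replicates 1, 2 and 3 had 15, 14 and 32 circles that no other doxorubicin library had. Of the 91, 90 were above 0 in a dactinomycin library and 79 in all 3, beside 468 and 386 of all 472 circles. The circle of the 91 that was at 0 in every dactinomycin library was Ect2.

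In limma, fitted to log2(value + 1) over all 21 libraries of the panel with Benjamini-Hochberg adjustment, 384 of 472 circles (81.4%) passed an adjusted p of 0.05. Of these, 380 (80.5%) were lower and 4 (0.847%) higher after doxorubicin, and 88 did not pass. With the common detection floor, 115 circles passed (24.4%), of which 111 were lower (23.5%) and 4 higher (0.847%). All of those 111 were among the 380, and 105 of them were at 0 in all doxorubicin libraries. In the fit over the 6 libraries alone, 307 were lower and 5 higher. Without doxorubicin replicate 3, which stood apart, 371 were lower and 3 higher. Centring each library on the median of all rows turned the split to 82 higher and 13 lower, because that median is 0 in each doxorubicin library and between 8.61 and 8.71 on the log2 scale in the dactinomycin libraries. The groups did not overlap for 307 circles lower (65.0%) and 12 circles higher (2.54%) after doxorubicin.

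A lower call mostly means an undetected circle. Of the 380 lower circles, 356 were at 0 in all 3 doxorubicin libraries, and each of the other 24 was above 0 in exactly 1 of them. That library was replicate 3 for 18 of the 24 and replicates 1 and 2 for 3 each. For 9 of the 24, which lie in Bub1b, Fbxo42, Rere, Sos2, Spred2, Trip11, Vps54, Zbtb10 and Zcchc7, the mean value was higher after doxorubicin although the log2 difference was below 0. For these the call follows the number of zeros and not the mean.

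How much of this the reads could show was taken from the 377 circles at 0 in all doxorubicin libraries that have a length. The dactinomycin mean exceeded the worth of 3 reads in the shallowest doxorubicin library for 89 of them, and every dactinomycin value did so for 41. At the dactinomycin mean, the 3 doxorubicin libraries together would have held a median of 7.25 reads on such a circle (quartiles 4.44 and 11.4), and 10 or more on 121. The highest figure was 86.4 reads, for the Ash1l circle of exons 1 and 2 (chr3:88965812-88985790). For the other circles a fall was not detectable at the worth of a read in that library alone. The plot of dactinomycin means against that floor shows which circles lie on each side.

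**Figure D2:**
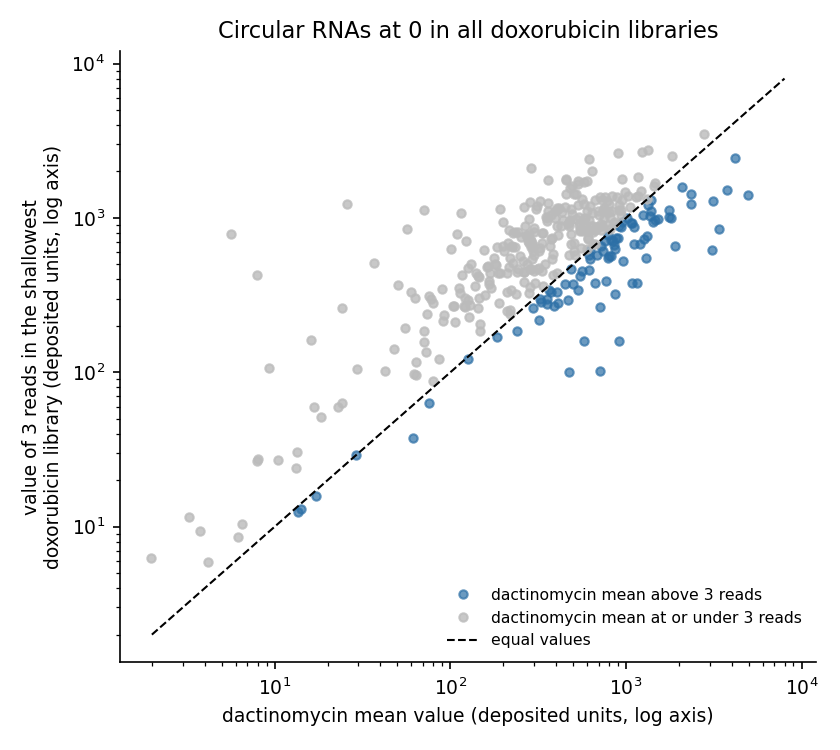
Circles at 0 in all doxorubicin libraries that were above 0 in a dactinomycin library, with the dactinomycin mean on the horizontal axis and the value of 3 reads in the shallowest doxorubicin library on the vertical axis, both in the deposited unit on log axes. The 89 circles right of the dashed line of equal values could have been seen in that library at their dactinomycin mean.

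Where a circle was detected after doxorubicin, its value was nearly always above the dactinomycin values. Of 134 doxorubicin values above 0, 129 exceeded the highest dactinomycin value of the same circle. For the 109 such values of circles above 0 in all dactinomycin libraries, the median ratio to the dactinomycin mean was 2.95 (quartiles 2.23 and 4.07). In back-splice reads the order turned, with 82 of 101 such values standing for fewer reads than the dactinomycin mean and a median ratio of 0.6. These scales differ by the worth of a read, and no detected value stood for fewer than 2 reads, which are worth more after doxorubicin. No test was made of these ratios, since circles detected after doxorubicin are those that were high there.

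The 4 circles that passed as higher after doxorubicin were led by Ect2. The Ect2 circle (chr3:27115396-27145059, minus strand, mm10) runs over 16 exons, from exon 6 to exon 21, of the gene for a guanine nucleotide exchange factor that drives cytokinesis. Its values were 6222, 6135 and 4080 after doxorubicin, against 0, 0 and 0 after dactinomycin, from 66, 66 and 90 reads against none. DMSO cells had 5111, 9593 and 2518. All doxorubicin values lay within the DMSO range. Measured against 3 reads in the shallowest dactinomycin library, the circle was at least 123-fold higher after doxorubicin. The log2 difference was 12.39 (SE 2.33) with a limma adjusted p of 0.000198, and the call held in every alternative that was run.

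The Nfat5 circle (chr8:107334912-107335484, plus strand) lies within the gene for the transcription factor of the response to hypertonic stress, with ends that are not on annotated exon borders. It had 10204, 7989 and 1299 units after doxorubicin, against 193, 0 and 0 after dactinomycin, and 5035, 17618 and 6263 in DMSO cells. Every doxorubicin value was above every dactinomycin value, although replicate 3 was far below the others. The log2 difference was 9.68 (SE 2.61, limma adjusted p = 0.00327). With the common floor both circles passed again.

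Bbs9 and Spen passed by less. The Bbs9 circle (chr9:22643745-22659145, plus strand), exons 12 to 16 of the gene for a subunit of the BBSome that carries cargo to cilia, had 5410, 4191 and 3716 units after doxorubicin, against 1687, 0 and 0 after dactinomycin. DMSO libraries were at 0. The groups did not overlap, and the log2 difference was 8.52 (SE 3.66, limma adjusted p = 0.0423). The call was lost with the common floor (adjusted p = 0.135), in the fit over the 6 libraries alone (0.0754), in reads (0.111), and on leaving out any of the libraries except dactinomycin replicate 1, with adjusted p between 0.0720 and 0.144.

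The Spen circle (chr4:141516836-141522392, minus strand) joins exons 2 and 3 of the gene for an RNA-binding transcriptional repressor. It had 2139, 2741 and 1954 units after doxorubicin, against 1126, 852 and 0 after dactinomycin, and 0 in DMSO cells. The log2 difference of 4.51 (SE 1.83, limma adjusted p = 0.0338) rests on the single dactinomycin library at 0. Without dactinomycin replicate 3 it was 1.20 (adjusted p = 0.102), without any 1 of the doxorubicin libraries the adjusted p was between 0.0542 and 0.0725, and it was 0.107 with the common floor, 0.226 in the fit over the 6 libraries alone and 0.639 in back-splice reads.

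The 10 circles with the largest fall were at 0 in all doxorubicin and all DMSO libraries and were among the highest after dactinomycin. Ranking by log2 difference picks circles at 0 after doxorubicin and high after dactinomycin, so those traits follow from the choice. The Erbin circle (chr13:103884143-103889285), from the gene for a scaffold that binds the receptor ERBB2, had 0, 0 and 0 units after doxorubicin, against 5036, 5505 and 4396 after dactinomycin. The Cnot2 circle (chr10:116517317-116549175), from a subunit of the CCR4-NOT complex that shortens mRNA tails, had 0, 0 and 0 after doxorubicin, against 3891, 3382 and 5295 after dactinomycin. The Vapa circle (chr17:65592291-65595054), from a protein that tethers the endoplasmic reticulum to other membranes, had 0, 0 and 0 after doxorubicin, against 3659, 3452 and 4172 after dactinomycin. The dactinomycin libraries gave like values for each of these, and no doxorubicin library reached them. Measured against 3 reads in the shallowest doxorubicin library, the falls were at least 3.51-fold for Erbin, 1.71-fold for Cnot2 and 2.46-fold for Vapa.

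The Mkln1 circle (chr6:31418931-31433131), from the gene for muskelin, a part of the CTLH ubiquitin ligase, had 0, 0 and 0 units after doxorubicin, against 2847, 3144 and 4124 after dactinomycin (at least 3.95-fold lower). The Uck2 circle (chr1:167234692-167237648), from a kinase that salvages uridine and cytidine, had 0, 0 and 0 after doxorubicin, against 3589, 3044 and 2780 after dactinomycin (at least 2.43-fold lower). The Ash1l circle (chr3:89001773-89007877), exons 3 and 4 of a histone H3 lysine methyltransferase gene, had 0, 0 and 0 after doxorubicin, against 2820, 3118 and 3366 after dactinomycin. Its fall of at least 5.04-fold was the largest bound among the 10. At the dactinomycin mean, doxorubicin replicates 1, 2 and 3 would have held 15.1, 15.3 and 31.4 reads on the Ash1l junction, and none was found.

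The remaining circles of the 10 come from Esyt2, which tethers the endoplasmic reticulum to the plasma membrane, Arih1, a ubiquitin ligase, Nfkb1, which encodes an NF-kappa-B subunit, and Arid1a, a subunit of the SWI/SNF chromatin remodeller. Their dactinomycin means were 2352, 2362, 2090 and 1907 units, and their doxorubicin values were 0. The bounds were at least 1.90-fold, 1.66-fold, 1.32-fold and 2.88-fold lower after doxorubicin. Limma adjusted p-values of the 10 ran between 7.33e-14 for Arih1 and 0.00785 for Esyt2, and all 10 passed again with the common floor. In the limma fit over the 6 libraries alone the adjusted p was 6.41e-07 for Arih1 and 5.30e-07 for Esyt2. The main fit pools its spread over all groups, and groups at 0 throughout add none. With each library centred on the median of all rows, 8 of the 10 did not pass, with Uck2 and Arih1 the exceptions. The fitted log2 differences, between -12.28 and -10.89, depend on the pseudocount and are not fold changes. Their SEs ran between 0.36 for Arih1 and 3.43 for Esyt2.

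**Figure D3:**
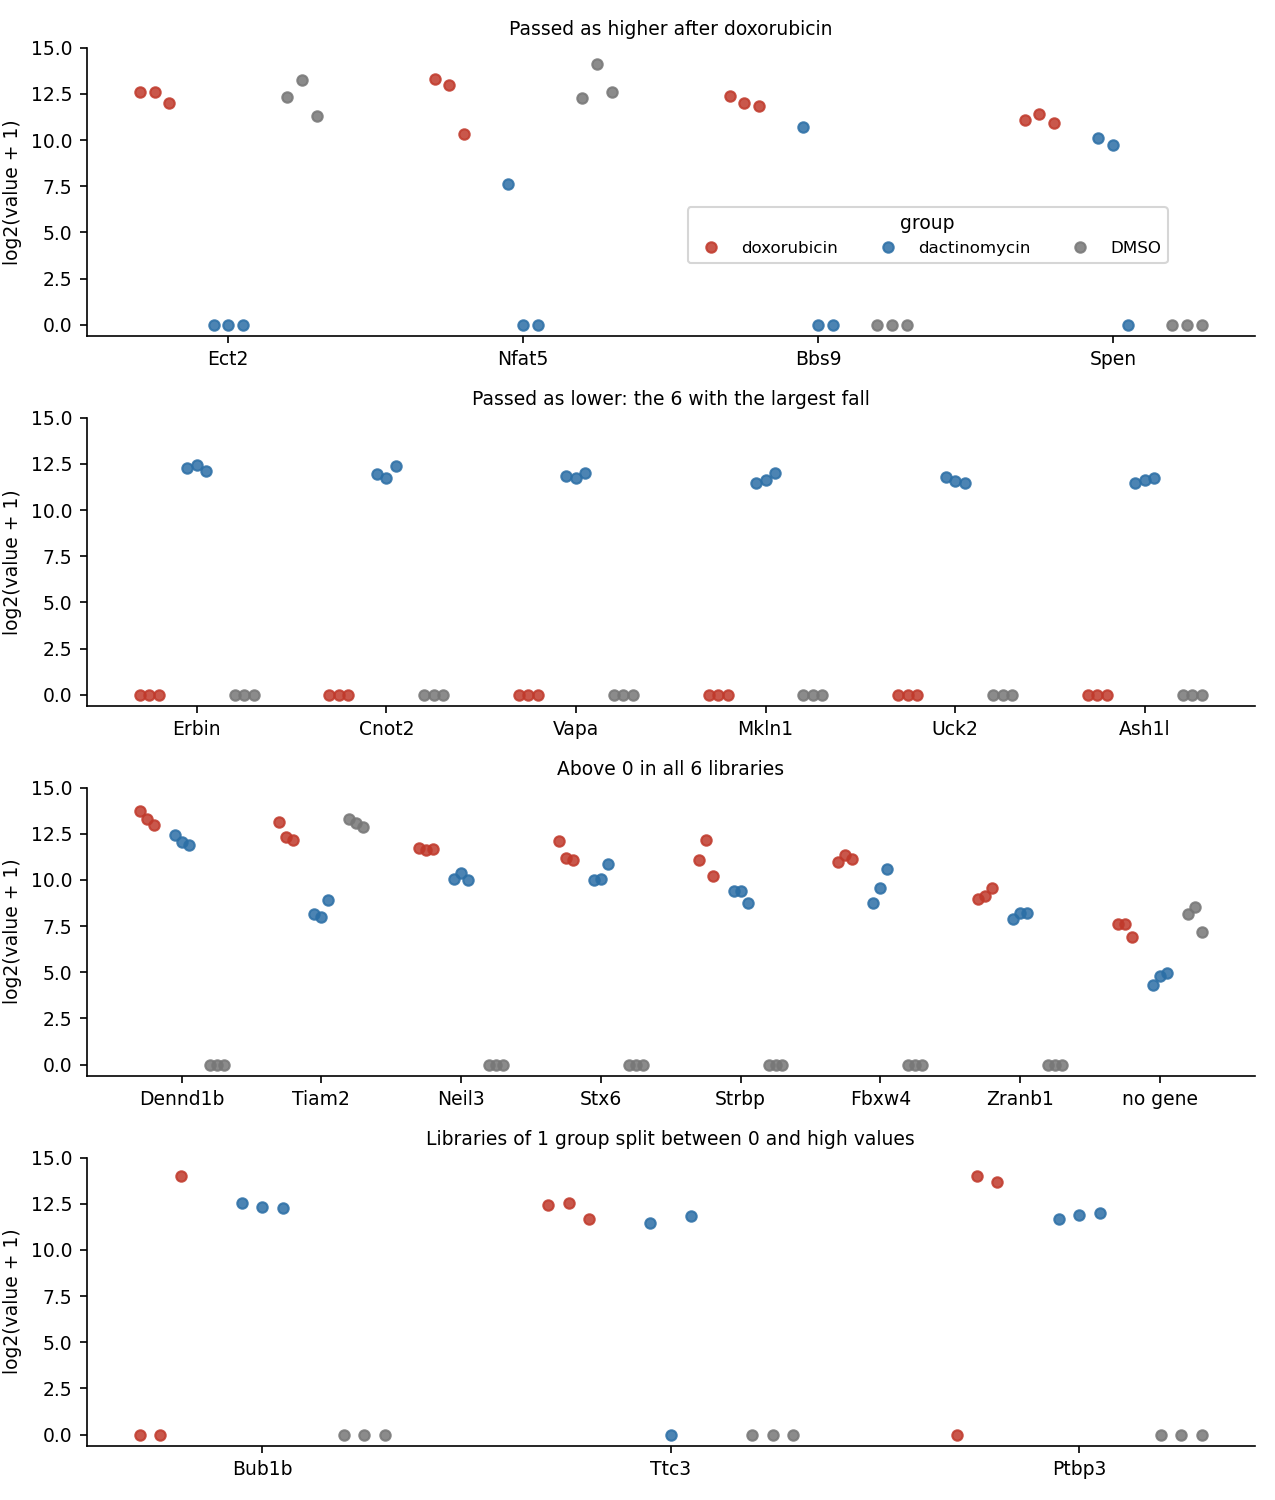
Values of named circles as log2(value + 1) in each library, with doxorubicin left, dactinomycin in the middle and DMSO right for each host gene; a value of 0 plots at 0. Rows show the 4 circles that passed as higher, 6 of the 10 largest falls, the 8 circles above 0 in all 6 libraries and 3 circles whose libraries split. Among the groups shown, Ect2 is at 0 in the dactinomycin libraries alone, and Erbin to Ash1l are above 0 in the dactinomycin libraries alone.

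In all, 8 of 472 circles were above 0 in all 6 libraries, so their values can be compared without zeros. In each of the 8 every doxorubicin value exceeded every dactinomycin value, as it did in 12 of all 472 circles (2.54%). The set holds only circles detected in every doxorubicin library, where a read is worth more, which favours this order. Of the 8, 0 passed the limma test (0 at an unadjusted p under 0.05). In the fit over the 6 libraries alone 3 of them passed, which were Tiam2, Zranb1 and a junction on chromosome 15. The Neil3 circle (chr8:53599099-53609538, minus strand), from a DNA glycosylase that repairs oxidised bases and unhooks interstrand crosslinks, had 3346, 3156 and 3218 units after doxorubicin, against 1065, 1309 and 1033 after dactinomycin. Its mean was 2.85 times as high after doxorubicin, and both groups were tight. The log2 difference was 1.52 with a 95% interval from -2.68 to 5.72 (limma adjusted p = 0.476), where the spread is estimated over all 7 groups of the panel. The Dennd1b circle (chr1:139053346-139062971, plus strand), from an exchange factor for Rab35, had 13605, 10194 and 8112 units after doxorubicin, against 5521, 4334 and 3776 after dactinomycin. It had the highest listed mean in the doxorubicin group, with a log2 difference of 1.21 and a 95% interval from -5.38 to 7.81 (limma adjusted p = 0.712).

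The Tiam2 circle (chr17:3477175-3516717, plus strand), 12 exons of a gene for a Rac exchange factor, had 9186, 5192 and 4594 units after doxorubicin, against 283, 253 and 483 after dactinomycin. DMSO cells had 10117, 8628 and 7565. The doxorubicin mean was 18.6 times the dactinomycin mean, and the doxorubicin values lay nearer to DMSO. The log2 difference was 4.21 with a 95% interval from -0.53 to 8.95 (limma adjusted p = 0.0898), and it passed in the fit over the 6 libraries alone (adjusted p = 0.00628).

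Ratios of the doxorubicin mean to the dactinomycin mean were 2.28 for Stx6, a SNARE of the trans-Golgi, 4.41 for Strbp, a double-stranded RNA-binding protein, 2.55 for Fbxw4, an F-box protein, and 2.20 for Zranb1, a deubiquitinase. A junction that no annotated gene spans, chr15:61864604-62038201, had a ratio of 6.57. In back-splice reads, 5 of the 6 circles that gave whole reads had fewer reads after doxorubicin than after dactinomycin, and the exception was Tiam2 with 196 reads after doxorubicin, against 57 after dactinomycin. Neil3 had 91 reads after doxorubicin and 163 after dactinomycin. Which drug came out higher therefore depended on the scale for Neil3, Dennd1b, Stx6, Fbxw4 and Zranb1 and did not for Tiam2, as the plot of both ratios shows.

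**Figure D4:**
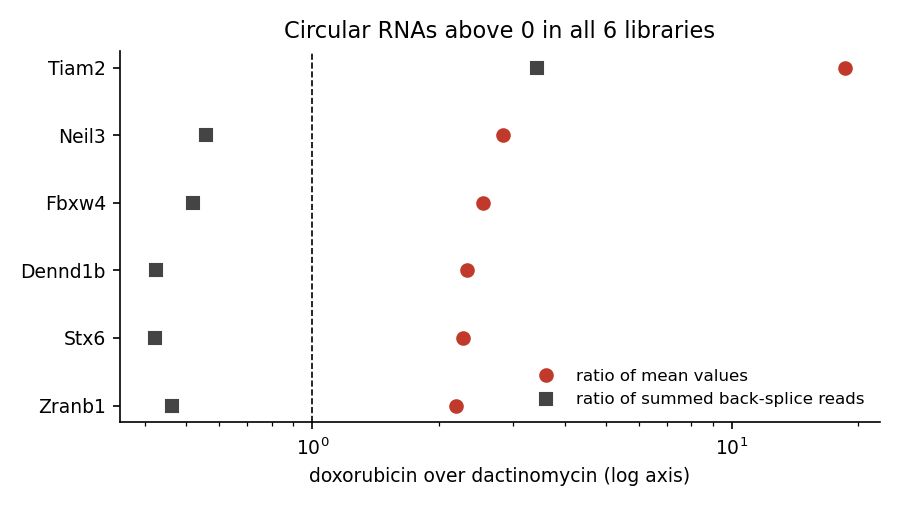
Ratio of doxorubicin to dactinomycin on a log axis for the 6 circles above 0 in all 6 libraries that gave whole reads, as the ratio of mean values (circles) and of summed back-splice reads (squares). The ratios of values lie between 2.20 and 18.6; those of reads lie under 1 except for Tiam2, at 3.44.

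Only 5 listed circles were above 0 in any DMSO library, and all 5 followed 1 pattern. They are Ect2, Nfat5, Tiam2, the chr15 junction and a circle in Gm38394. Each was above 0 in at least 2 doxorubicin libraries, and each had a higher mean after doxorubicin than after dactinomycin. The chr15 junction had 192, 194 and 119 units after doxorubicin, against 19.2, 27.3 and 30.3 after dactinomycin, and 281, 370 and 146 in DMSO cells. The Gm38394 circle had 1621, 1162 and 0 units after doxorubicin, against 0, 0 and 46.5 after dactinomycin, and 2092, 5767 and 0 in DMSO cells. Against DMSO, 3 circles were higher after doxorubicin (0.636%), while 436 were higher after dactinomycin (92.4%) and 2 lower (0.424%), by limma adjusted p. The 3 were Spen, Neil3 and Ttc3, and the 2 were Ect2 and Nfat5. These comparisons share the DMSO libraries, in which a read on 1000 nt stood for between 144 and 337 units.

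Several high circles split the doxorubicin libraries between 0 and values far above dactinomycin. The Bub1b circle (chr2:118631759-118635277, plus strand), exons 17 to 19 of the gene for the spindle checkpoint kinase BubR1, had 0, 0 and 16453 units after doxorubicin, against 6028, 5047 and 4981 after dactinomycin. It had the highest listed mean after dactinomycin and the highest listed value in doxorubicin replicate 3, with 78 reads there. Its log2 difference was -7.71 (SE 2.45, limma adjusted p = 0.00970), but its mean was 5484 after doxorubicin and 5352 after dactinomycin. The call was lost without doxorubicin replicate 1 (adjusted p = 0.0599) or replicate 2 (0.0611) and in the fit over the 6 libraries alone (0.162), and the direction turned when each library was centred on the median of all rows.

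The Ptbp3 circle (chr4:59514274-59524476), from a regulator of splicing, had 0, 16571 and 13263 units after doxorubicin, against 3321, 3814 and 4078 after dactinomycin. At the lower of the other doxorubicin values, replicate 1 would have held 30.8 reads. The log2 difference was -2.63 (limma adjusted p = 0.313) with all libraries, 1.99 (adjusted p = 0.00780) without doxorubicin replicate 1 and -5.02 (adjusted p = 0.0703) without doxorubicin replicate 2. The Ttc3 circle (chr16:94383912-94393174), from a ubiquitin ligase gene, had 5424, 5942 and 3284 units after doxorubicin, against 2760, 0 and 3675 after dactinomycin. Dactinomycin replicate 2 would have held 93.2 reads at the lower of the other dactinomycin values, and the adjusted p was 0.0639 with all libraries, 0.0177 without dactinomycin replicate 1, 0.0119 without dactinomycin replicate 3 and 0.465 without dactinomycin replicate 2, the library at 0. Without that library the log2 difference was 0.57, against 4.45 with all libraries.

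Such isolated zeros, beyond what counting error gives, were found in every library. A circle was at 0 in 1 dactinomycin library while the other dactinomycin values were each worth 10 or more reads there in 44 cases, spread as 15, 13 and 16 over replicates 1, 2 and 3. In doxorubicin libraries there were 5 such cases, with 3, 1 and 1 in replicates 1, 2 and 3. Of the 44 circles with such a dactinomycin zero, 33 passed as lower after doxorubicin, beside 380 of all 472 circles (80.5%). What set these values to 0 was not tested, and a single 0 therefore carries less weight than the worth of a read would give it.

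The lists of genes below are described by their counts, with no test of a list. The lower calls are read against 80.5% of all circles, or 23.5% with the common floor, and the median log2 difference against -7.41 over all circles. With circles at 0 set to the worth of 3 reads in the shallowest library of that group, the median over all circles was 0.53. That floor takes the shallowest library alone and does not show that most circles were as high after doxorubicin as after dactinomycin. Over the 3 doxorubicin libraries together, circles at 0 in all of them would have held a median of 7.25 reads at the dactinomycin mean. Among 20 genes known to give circular RNAs, 10 hosted 11 listed circles, of which 8 were lower (3 with the floor; median -8.02, or 0.62 with zeros at 3 reads). The other 3 did not pass. The Rtn4 circle, from the gene for the neurite outgrowth inhibitor Nogo, was at 0 after doxorubicin and had 580, 666 and 494 units after dactinomycin (at least 3.64-fold lower, adjusted p = 3.47e-05). The Foxo3 circle, from a forkhead transcription factor gene, had 2874, 0 and 0 units after doxorubicin, against 584, 512 and 737 after dactinomycin (adjusted p = 0.169). The adjusted p was 0.0273 without doxorubicin replicate 1, the one above 0, and 0.416 or 0.419 without doxorubicin replicate 2 or 3. The Fndc3b circle, from a fibronectin type III domain gene, was at 0 in every doxorubicin library and had 1849, 0 and 0 units after dactinomycin (adjusted p = 0.0826). Without dactinomycin replicate 1, the single library above 0, the adjusted p was 1.0, and it was 0.0177 or 0.0176 without dactinomycin replicate 2 or 3.

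Of 55 genes of mitosis and cohesion, 6 hosted 7 circles, with 6 lower and 1 higher (3 lower and 1 higher with the floor; median -8.54, or 0.33 with zeros at 3 reads). The higher circle was Ect2, whose doxorubicin values lay within the DMSO range. The Cep350 circle, from a centrosomal protein gene, had 0, 0 and 2116 units after doxorubicin, against 739, 924 and 801 after dactinomycin. Its log2 difference was -5.99 (limma adjusted p = 0.0126). Its call was lost without doxorubicin replicate 1 (adjusted p = 0.0729) or 2 (0.0757). The Cep350 call was also lost in the fit over the 6 libraries alone (0.165) and with a pseudocount of 100 (0.0837). The Cep192 circle, from a gene for centriole assembly, was at 0 after doxorubicin and had 568, 854 and 1020 units after dactinomycin; its call was lost with the floor (adjusted p = 0.0684).

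Of 64 genes of the DNA damage response, 7 hosted 10 circles, with 9 lower (4 with the floor; median -6.21, or 0.43 with zeros at 3 reads). The exception was Neil3. The Rad18 circle of exons 5 to 9, from the ubiquitin ligase of translesion synthesis, was at 0 after doxorubicin and had 755, 1300 and 1532 units after dactinomycin (at least 1.76-fold lower, adjusted p = 1.58e-05). The other listed Rad18 circle of exons 5 to 8 was at 0 after doxorubicin and had 473, 1522 and 697 units after dactinomycin, and it was lost with the floor (adjusted p = 0.0601). The Bard1 circle, from the partner of BRCA1, had 0, 0 and 1485 units after doxorubicin, against 444, 638 and 584 after dactinomycin (limma adjusted p = 0.0129). Its call was lost without doxorubicin replicate 1 (adjusted p = 0.0771) or 2 (0.0769). The Bard1 call was also lost in the fit over the 6 libraries alone (0.172) and with a pseudocount of 100 (0.106). None of the 8 genes for topoisomerases and their repair enzymes, which hold the target of doxorubicin, hosted a listed circle.

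Chromatin regulators were the list with the most circles. Of 70 genes, 17 hosted 28 circles, all above 0 in the 3 dactinomycin libraries, with 26 lower (12 with the floor; median -8.52, or 0.19 with zeros at 3 reads). They include Ash1l and Arid1a above. The Chd2 circle, from a chromatin remodeller, had 4965, 0 and 0 units after doxorubicin, against 811, 533 and 498 after dactinomycin (log2 difference -5.14, adjusted p = 0.135), and its sign turned with the floor. The adjusted p was 0.00719 without doxorubicin replicate 1, the one above 0, and 0.400 or 0.404 without doxorubicin replicate 2 or 3. Of 40 genes of the transcription machinery, 7 hosted 9 circles, with 8 lower (3 with the floor; median -8.53, or 0.92 with zeros at 3 reads). The Cdk13 circle of exons 2 to 5, from a kinase of the RNA polymerase II tail, was at 0 after doxorubicin and had 504, 713 and 476 units after dactinomycin (at least 1.25-fold lower, adjusted p = 8.45e-14). The Aff1 circle, from a subunit of the super elongation complex, had 0, 0 and 1098 units after doxorubicin, against 293, 440 and 942 after dactinomycin (adjusted p = 0.0549). The adjusted p was 0.00193 without doxorubicin replicate 3, the one above 0, and 0.207 without either of the others. The Taf4 circle, from a subunit of the general factor TFIID, was at 0 after doxorubicin and had 464, 581 and 518 units after dactinomycin, and with the floor it was at 0 in all 6 libraries.

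Of 59 genes of splicing and RNA processing, 11 hosted 17 circles, with 15 lower and 1 higher (6 lower with the floor; median -8.28, or 0.28 with zeros at 3 reads). The higher circle was Spen, and the one that did not pass was Ptbp3. The Hnrnpll circle, from an RNA-binding regulator of splicing, had 0, 0 and 6398 units after doxorubicin, against 2547, 2407 and 1702 after dactinomycin (log2 difference -6.88, adjusted p = 0.0385). Its call was lost on leaving out any library except doxorubicin replicate 3, with limma adjusted p between 0.0681 and 0.168. It was also lost with the floor (0.0923) and with the replicate number as a block (0.0535). The Hnrnpll call was lost as well in the fit over the 6 libraries alone (0.165), with a pseudocount of 100 (0.0832) and with equal sums (0.0530). Of 64 ubiquitin ligases and adaptors, 9 hosted 11 circles, with 7 lower (4 with the floor; median -6.65, or -0.10 with zeros at 3 reads).

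Of 76 genes for regulators of small GTPases, 17 hosted 22 circles, with 15 lower and 1 higher (5 lower and 2 higher with the floor; median -6.88, or -0.40 with zeros at 3 reads). Of the 22, 11 were above 0 in a doxorubicin library and 3 in all 3, beside 91 and 13 of all 472 circles. The 3 were Ect2, Tiam2 and Dennd1b. The Spred2 circle, from an inhibitor of RAS signalling, had 0, 0 and 9895 units after doxorubicin, against 3046, 2315 and 2586 after dactinomycin. Its log2 difference was -6.94 (limma adjusted p = 0.0131), and its mean was higher after doxorubicin. Its call was lost without doxorubicin replicate 1 (adjusted p = 0.0782) or 2 (0.0786). The Spred2 call was also lost in the fit over the 6 libraries alone (0.177) and with a pseudocount of 100 (0.0610). No test compared the lists with one another.

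Single genes gave several circles each, and these fell together. Ash1l hosted 5 circles that were at 0 in all doxorubicin libraries and passed as lower, also with the floor, with dactinomycin means between 75.3 and 3101 units. Rere, the gene for an atrophin family co-repressor, hosted 5 lower circles with dactinomycin means between 18.3 and 1496 units, of which 2 passed with the floor. Circles of 1 gene share exons and a primary transcript and are not independent of each other.

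Rere shows how circles of one gene relate, since 4 of its 5 combine 2 starts with 2 ends. The junctions below show that a shared start gives the same capitals and a shared end the same lower-case letters (plus strand of chr4, GENCODE M21, mm10).
Rere exons 4 to 7: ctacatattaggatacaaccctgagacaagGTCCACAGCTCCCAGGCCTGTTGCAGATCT
Rere exons 5 to 7: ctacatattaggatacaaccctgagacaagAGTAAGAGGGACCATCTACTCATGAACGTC
Rere exons 4 to 10: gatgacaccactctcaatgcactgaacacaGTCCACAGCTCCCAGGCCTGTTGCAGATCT
Rere exons 5 to 10: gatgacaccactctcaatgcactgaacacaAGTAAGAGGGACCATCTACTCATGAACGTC

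The circle of exons 4 to 7 (chr4:150439343-150477468) had 0, 0 and 6097 units after doxorubicin, against 1832, 1344 and 1312 after dactinomycin. That of exons 5 to 7 (chr4:150468695-150477468) was at 0 after doxorubicin and had 1506, 1729 and 1145 units after dactinomycin. That of exons 4 to 10 (chr4:150439343-150510038) was at 0 after doxorubicin and had 1185, 1254 and 1379 units after dactinomycin. The circle of exons 5 to 10 (chr4:150468695-150510038) was at 0 after doxorubicin and had 0, 741 and 1212 units after dactinomycin. Of the 4 ways to join these borders, all were used after dactinomycin, and 1 was seen in 1 doxorubicin library. Among those not seen, exons 4 to 10 had a dactinomycin mean above 3 reads in the shallowest doxorubicin library (1273 against 729 units). The means for exons 5 to 7 (1460 against 1675) and exons 5 to 10 (651 against 886) were below it, so their absence carries less weight.

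Circles seen and not seen after doxorubicin had like medians in structure. Of those with both ends in one transcript, 55.0% of the ones above 0 in a doxorubicin library started at exon 2, and 55.7% of the ones at 0 in all 3 did. The median number of exons was 4 in both sets, and the median spliced length was 684 nt in the detected set and 699 nt in the undetected one. Circles of 1 exon were 14 of the 91 detected and 34 of the 381 undetected. The 13 circles above 0 in all 3 doxorubicin libraries had a median of 5.5 exons, and 4 of the 10 with both ends in one transcript started at exon 2. They differed in abundance after dactinomycin, with a median dactinomycin mean of 597 units and 57 reads for circles detected after doxorubicin, against 382 units and 38 reads for the others. These figures describe the sets and were not tested.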

How the data were processed

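LLC1 total RNA was depleted of ribosomal RNA and made into stranded libraries, per the labels' protocols. Per the submitters' processing notes the tools were MultiQC, featureCounts, STAR and FastQC, and the builds hg19 and mm10; no version is recorded. The caller and quantifier of circular RNAs were not given in the sources used here. Values deposited by the authors are a signal per circle and library, in no named unit, restricted to rows they had selected, which favours rows that differ between groups.

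Junction ends were matched to GENCODE M21 exons (mm10) in Python 3.11.15. Back-splice reads were recovered from the steps in the values. In 94 circles the scale followed the genomic span, 46 of them with more than 1 exon or no transcript, so levels of different circles are set side by side on the deposited scale alone, not per spliced length. Floors cover counting error only. Intervals come from the limma fit and rest on the spread between libraries over all 7 groups. Signal was tested as log2(value + 1) with limma 3.58.1 in R 4.3.3 (mean-variance trend, 21 libraries in 7 groups of 3, two-sided, Benjamini-Hochberg over 472 rows, adjusted p under 0.05), and single values per library with exact permutation tests. The fit was tested on simulated data without zeros, so that test does not cover calls that rest on zeros. All columns of per-sample values were mapped.

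The circles named are all higher calls, the 10 lower calls with the largest log2 difference, all circles above 0 in all 6 libraries, circles above 0 in at least 2 doxorubicin libraries and at 0 after dactinomycin, the highest of each group, and up to 4 per gene list by mean. Hosts with the most circles are limited to the first 3 in genome order. A few of these are not reported here. Where other genes are given, they were chosen after their values were seen. Members, lists and rules were chosen with earlier results of these data known. Alternatives were other pseudocounts, filters, scalings, a common detection floor, reads, a replicate block and leaving out libraries.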

Additional observations from a re-analysis of the deposited data

How the results depend on the processing

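The count of 384 circles stayed within 1.5 times under other pseudocounts, the filter, the 6-library fit, equal sums, reads and no trend, and ran between 350 and 374 with 1 library left out (345 to 371 lower, 3 to 5 higher). It was 115 with the common detection floor (111 lower) and 95 with centring on all rows (82 higher, 13 lower). The 4 higher circles became 7 with a pseudocount of 100, 2 with centring on rows above 0 in all 6 libraries and 2 with reads. The lower circles are limited by the few reads of the doxorubicin libraries, in which those at 0 would have held a median of 7.25 reads at their dactinomycin mean.

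Between same-numbered libraries, Pearson r of deviations from the group means was 0.0118, 0.0280 and -0.0224 over 469 circles. Of all 472 circles, 381 were at 0 in every doxorubicin library and so have no deviation there. An r near 0 therefore cannot tell whether the numbers pair the libraries. With the replicate block 382 circles passed, 378 lower and 4 higher.

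The difference in circles above 0 ran between -396.7 and -386.7 with 1 library left out, that in summed value between -169844 and -136151, and that in the share of the 10 highest between 40.9 and 46.8 percentage points. The difference in median spliced length, -0.17 nt, ran between -41.3 and 22.3 nt and changed sign.

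Log2 differences of named circles reversed as follows; the cause was not tested beyond the shift each scaling makes. With centring on rows above 0 in all 6 libraries they were -0.78 for Dennd1b, -0.47 for Neil3, -0.83 for Stx6, -0.040 for Strbp, -0.45 for Fbxw4 and -0.87 for Zranb1. With reads they were -1.19 for Dennd1b, -0.89 for Neil3, -1.21 for Stx6, -0.83 for Fbxw4 and -1.22 for Zranb1. With centring on all rows they were 0.93 for Bub1b, 3.23 for Foxo3, 5.03 for Fndc3b, 2.65 for Cep350, 3.05 for Bard1, 3.51 for Chd2, 6.02 for Ptbp3, 1.77 for Hnrnpll, 3.06 for Aff1 and 1.71 for Spred2. With the floor Chd2 was at 4.09, and with 1 library left out Ptbp3 ran between -5.02 and 1.99, the higher value without doxorubicin replicate 1. Of 41 named circles, 16 lost their call and 10 reversed with centring on all rows, 7 lost it with the floor and 7 in the fit over the 6 libraries.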
